A study of Mus musculus with 8 samples.

Results

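Cytosolic ribosomal protein genes encode the proteins that join ribosomal RNA to form the large and the small subunit of the ribosome outside mitochondria. The members were the protein-coding genes of chromosomes 1 to 19 in the GRCm38 annotation with an Rpl or Rps symbol followed by a digit, plus Rplp0, Rplp1, Rplp2 and Rpsa. Kinases (Rps6k), Rps19bp genes and predicted Gm models were left out. The rule used no measured value and gave 86 of the 20665 protein-coding genes on these chromosomes. By symbol alone, 50 of the 86 genes were classed as large subunit, 33 as small subunit and 3 as acidic stalk. The stalk is the flexible arm of the large subunit that recruits elongation factors. What each gene encodes was not checked. The 86 genes are scattered, with the most on chromosome 7, which holds 14, and none on chromosome 19. Among them, 8 have symbols ending in l or l1, such as Rpl3l, Rpl22l1 and Rps27l, which mark paralogs of another ribosomal protein gene. A further 28 have an annotated small nucleolar RNA inside them. The members Rpl34-ps1, Rpl31-ps12, Rpl37rt, Rps23rg1 and Rps27rt have symbols that point to retrocopies but are annotated as protein-coding. The rule therefore kept them, and the classes above include them.

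Ribosomal protein genes are among the most strongly and widely transcribed housekeeping genes, because a growing cell keeps renewing its ribosomes. Their promoters are compact, mostly lack a TATA box and often hold sites for ETS factors and YY1. Many of their mRNAs begin with a C followed by a run of pyrimidines, through which mTOR signalling controls their translation. Active promoters of this kind usually carry acetylated lysine 27 of histone H3 (H3K27ac), a mark of active promoters and enhancers.

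The 8 libraries were Cut & Tag libraries, in which an antibody guides a transposase to cut and tag the DNA beside its target, made from 50000 cells each. The cells came from 1 line of brown preadipocytes immortalized with SV40 large T antigen, which had been isolated from the iBAT (interscapular brown adipose tissue) of newborn mice of the genotype Cars2 flox/flox. Cars2 encodes the mitochondrial cysteinyl-tRNA synthetase. The Vec cells (line BAC-V, labelled WT) had received the empty retrovirus and so carried the same floxed alleles, while the BAC-Cre cells (labelled CarS2-KO) had received a Cre retrovirus. Both lines had been selected with hygromycin and taken through brown adipocyte differentiation, although their labels call the cell type preadipocyte. Each line was profiled with an antibody to H3K27ac and with one to EBF2, a transcription factor that marks committed brown preadipocytes, with 2 libraries per line and antibody. The study states in general terms that cell culture experiments were repeated and that measurements came from distinct samples. It does not say whether the replicate libraries used here were separate cultures. As both lines also derive from 1 immortalized parent, the p-values measure only the spread between libraries.

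Only lists of called peaks were analysed, so a gene without a peak is a gene at which nothing was listed, not a gene shown to lack the mark. The H3K27ac lists held 836 and 646 peaks in Vec and 673 and 902 in Cre, and the EBF2 lists held 724 and 533 in Vec and 660 and 676 in Cre. These lists are short for a genome-wide mark, and the read depth behind them is unknown. None of the 12 brown adipocyte markers examined, Ucp1, Pparg and Adipoq among them, had a peak within 10 kb in any of the 8 lists. From its Cut & Tag data the study reports less EBF2 binding at Ucp1 in Cre than in Vec cells. No peak was listed within 10 kb of markers of macrophages (0 of 5), endothelial cells (0 of 3), myoblasts (0 of 3) or fibroblasts (0 of 4) either. Per list, 3.09 to 6.2% of all protein-coding genes had a peak within 10 kb, so 0 among so few markers says little. The labelled cell type could therefore not be checked from these lists. In the first EBF2 Cre library the peak names carry the text Cars2AKO, a name the study gives to knockout mice made with Adiponectin-Cre, and in the first EBF2 Vec library they carry WT, which is also the labelled genotype of BAC-V. Whether these 2 lists come from the cell lines could not be settled. The labels were followed, and no ribosomal protein gene had an EBF2 peak at an end in either of these lists or in the other EBF2 lists. Ranges and counts given below over the EBF2 lists, or over all 8 lists, include these 2 lists.

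Of the 86 cytosolic ribosomal protein genes, 3 had a peak within 3 kb of either gene end in any of the lists. They were Rpl31, Rps3a1 and Rps27a. Every one of these peaks was an H3K27ac peak, and each stood in a single list. The share with a peak in any H3K27ac list was 3.49%, against 6.33% of all protein-coding genes, or 2.56% of them when only peaks of 10 kb or less were counted. In any EBF2 list it was 0, against 3.99% of all protein-coding genes, or 0.644% with peaks of 10 kb or less. The other 83 genes had no peak at an end or within 10 kb of the gene in any of the 8 lists. They comprised 49 of the 50 large-subunit genes, 31 of the 33 small-subunit genes and all 3 stalk genes, Rplp0, Rplp1 and Rplp2. All 8 paralogs and 27 of the 28 genes with an internal small nucleolar RNA were among them.

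The promoters of Rpl31 and Rps3a1 are printed because an H3K27ac peak lay at or just past the start of each gene. Each runs from 100 bases before to 25 bases from the start site, from RefSeq on GRCm38 (the mm10 build of the peak lists), 5′ to 3′ on the strand of the gene. Capitals mark a match to CCGGAAG, a binding sequence of ETS factors.
Rpl31, chr1:39367751-39367875, plus strand: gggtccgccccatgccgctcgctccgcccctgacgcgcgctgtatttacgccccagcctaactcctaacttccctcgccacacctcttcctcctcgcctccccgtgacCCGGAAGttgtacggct
Rps3a1, chr3:86142644-86142768, minus strand: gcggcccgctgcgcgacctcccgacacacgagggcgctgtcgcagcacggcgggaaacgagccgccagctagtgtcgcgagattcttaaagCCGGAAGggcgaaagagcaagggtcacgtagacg
The match lay just downstream of the annotated start in Rpl31 and just upstream of it in Rps3a1. Searched on both strands over 250 bases before to 50 after each start, CCGGAAG stood in 8.86% of 32851 mouse promoters in the table. Neither promoter held the TATA box TATAAA, present in 13.6% of promoters, or the YY1 sequence AAGATGGC, present in 2.75%. The E-box CACGTG, found in 7.15% of promoters, was in neither of them either. The EBF core CCCNNGGG, which 13.7% of promoters held, occurred in the Rps3a1 promoter upstream of the printed stretch and not in that of Rpl31. Both annotated starts are a C, but the pyrimidine run that begins there is 3 bases long in Rpl31 and 1 in Rps3a1. Neither gene therefore began with a C and 4 more pyrimidines, as 2.51% of promoters did. A match is a description of these letters and not a bound site. Of the 86 genes, 65 matched the promoter table (75.6%), which was under the 80% minimum set for a share over the members, so none is given. Rps27a has no entry there.

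Rpl31, a protein of the large subunit near the exit of the nascent chain, spans chr1:39367851-39371911. In the second H3K27ac Cre library a peak of 925 bp lay at chr1:39367937-39368861, from 86 to 1010 bp after the start and so inside the gene. Its mean fold over background was 1.72, its −log10 p 5.19 and its −log10 q 3.7. By score it ranked 363 of the 902 peaks in that list, and 139 of the 503 peaks that were at most 10 kb long and on chromosomes 1 to 19. In the other H3K27ac lists the nearest peak lay 7481 kb away in the first Vec library, 19288 kb in the second Vec library and 5180 kb in the first Cre library. In the EBF2 lists it lay 19298 and 40349 kb away in Vec and 7407 and 7036 kb away in Cre. The peak was thus in 1 of 2 Cre libraries and in neither Vec library. An end of Tbc1d8, the neighbouring gene, also fell within 3 kb of it.

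Rps3a1 encodes a small-subunit protein, hosts the small nucleolar RNA Snord73a and spans chr3:86137940-86142668 on the minus strand. The second H3K27ac Cre library held a peak of 966 bp over its start, at chr3:86142386-86143351, reaching from 683 bp before to 282 bp after the start site. The peak covered the whole of the promoter printed above. It was the weakest of the 3, with a fold of 1.48, a −log10 p of 3.29 and a −log10 q of 1.85. It ranked 598 of 902 in its list and 304 of the 503 shorter peaks. In the other lists the nearest peak was 1920 to 2639 kb away. No other protein-coding gene has an end within 3 kb of this peak.

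Rps27a, which encodes a fusion of ubiquitin with a small-subunit protein, spans chr11:29545842-29548040. Its peak, of 1053 bp at chr11:29547482-29548534, was listed in the second H3K27ac Vec library and reached from inside the gene to 494 bp beyond its upper end, which is 29548040. With a fold of 1.83, a −log10 p of 6.52 and a −log10 q of 5.04, it was the best placed of the 3. It ranked 216 of 646 peaks in its list and 17 of the 232 shorter ones. In the first Vec library the nearest H3K27ac peak was 30.5 kb away, at an end of Prorsd1. In the Cre libraries it was 1644 and 1406 kb away, and in the EBF2 lists 1635 to 1648 kb. Ends of Mtif2 and of Clhc1, a gene that overlaps Rps27a, also lay within 3 kb, so the peak cannot be given to Rps27a alone. The median fold of shorter peaks was 1.83 in the list that held Rpl31 and Rps3a1 and 1.95 in the list that held Rps27a, so none of the 3 folds exceeded its list's median.

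**Figure D1:**
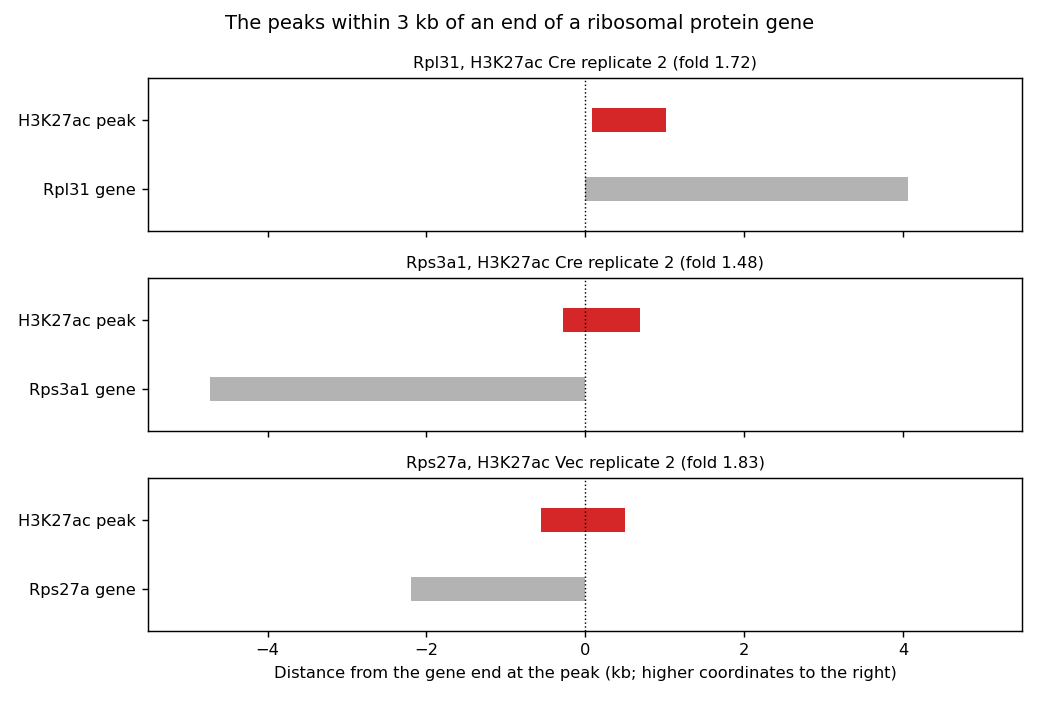
H3K27ac peaks (red) and the genes they lie at (grey), drawn to scale in kb from the gene end at the peak, with higher coordinates to the right and 1 panel per gene. The Rpl31 peak lies wholly inside its gene, while those of Rps3a1 and Rps27a straddle the gene end.

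The number of ribosomal protein genes with an H3K27ac peak at an end was 0 and 1 in the Vec libraries and 0 and 2 in the Cre libraries. The means were 0.5 ± 0.707 (SD, n = 2) and 1 ± 1.41 (SD, n = 2), and the groups overlapped. The difference of 0.5 genes gave p = 1 in a two-sided exact permutation test, in which 2 libraries against 2 cannot go below 0.333. Without the second Cre library, which held both Cre peaks, the difference turned to −0.5. Since the first library of each line held no such gene, none could have a peak in both replicates. Of all protein-coding genes, 3.75% had one in both Vec libraries and 3.8% in both Cre libraries, or 0.179% and 0.261% with peaks of 10 kb or less. With EBF2 the count was 0 in all 4 libraries, so Vec and Cre could not be compared by a test. Over both lines, H3K27ac gave 0.75 ± 0.957 genes per library (SD, n = 4) and EBF2 0 ± 0 (SD, n = 4). The difference of 0.75 genes gave p = 0.429 in the exact permutation test. With 6 of the 8 counts at 0 and both others in the H3K27ac lists, no relabelling gives a larger difference, so the test could not go lower and says nothing for or against a difference. Counts within 10 kb of the gene were identical to those at the ends in every list.

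Those counts stand beside the share of all protein-coding genes called in the same list. A peak at an end was listed for 4.98% and 3.95% of all protein-coding genes in the H3K27ac Vec libraries and for 4.13% and 5.16% in the Cre libraries. For the ribosomal protein genes the shares were 0 and 1.16% in Vec and 0 and 2.33% in Cre. In the EBF2 lists all protein-coding genes gave 3.57% and 2.73% in Vec and 3.61% and 3.51% in Cre, against 0 for the ribosomal protein genes. Within 10 kb of the gene, the H3K27ac shares of all genes were 5.79% and 4.53% in Vec and 4.77% and 6.2% in Cre. The EBF2 shares within 10 kb were 4.04% and 3.09% in Vec and 4.06% and 3.91% in Cre.

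In every H3K27ac library the share of ribosomal protein genes lay below that of all genes, with differences of −4.98 and −2.79 percentage points in Vec and −4.13 and −2.83 in Cre. The mean difference was −3.68 ± 1.07 percentage points (SD, n = 4), lower in 4 of 4 libraries. A two-sided exact sign-flip permutation test gave p = 0.125, the smallest that 4 libraries allow. Of the 817 protein-coding genes called in the second Vec library, 774 were also called in the first. The lists thus share genes and calls, so the same sign in all 4 is not 4 independent results, and no conclusion is drawn from this p-value. The difference depended on the width of the peaks. When only peaks of 10 kb or less were counted, the H3K27ac shares of all genes fell to 1.24% and 0.353% in Vec and 0.489% and 1.53% in Cre, while those of the ribosomal protein genes stayed the same. The mean difference then became −0.0304 percentage points, with p = 1 in the same exact test. The members' share was below that of all genes in both first replicates and above it in both second replicates. At the share of all genes, 86 genes would have given 3.1 calls summed over the 4 lists, and 3 were seen. With all peaks the corresponding figure was 15.7. For EBF2 the shares of all genes at peaks of 10 kb or less were 0.266% and 0.131% in Vec and 0.198% and 0.179% in Cre, at which 86 genes would give 0.666 calls summed over the 4 lists. With EBF2 peaks of any width the corresponding figure was 11.5, and the count was 0 in both settings. The EBF2 count thus lay below the share of all genes where wide stretches were counted, and with peaks of 10 kb or less so few calls were to be had that a count of 0 says nothing about these genes.

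**Figure D2:**
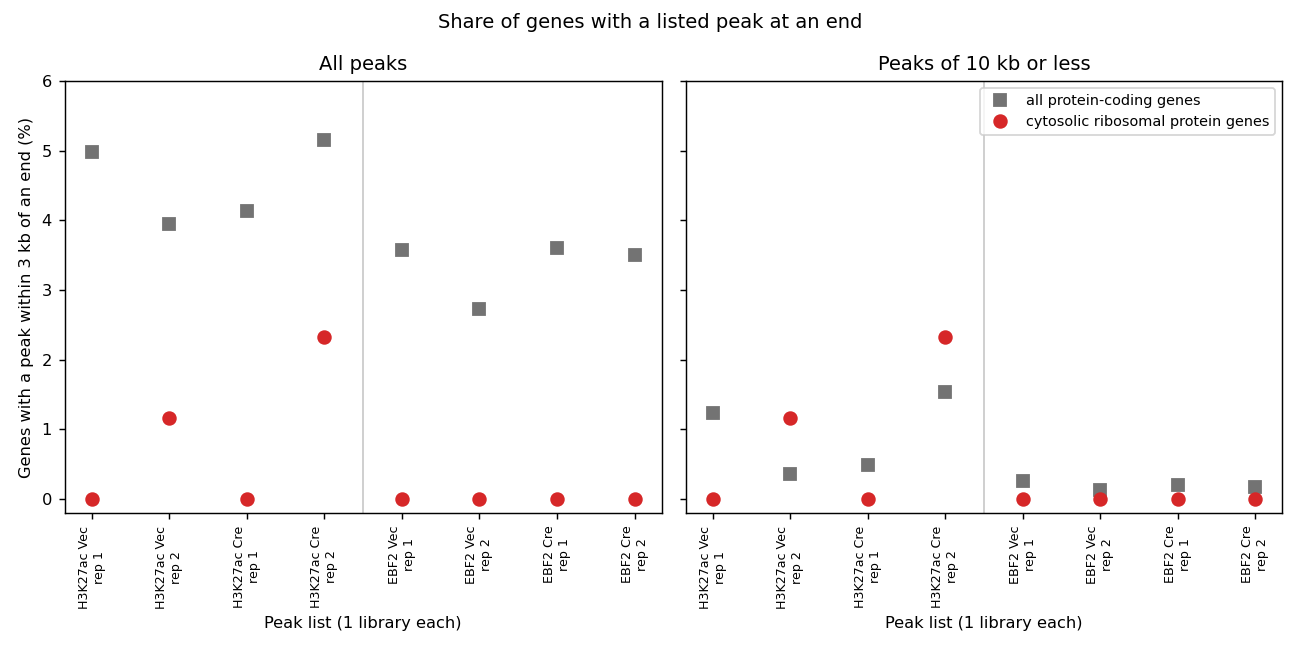
Percentage of genes with a peak within 3 kb of an end in each list, for the 86 ribosomal protein genes (red) and all 20665 protein-coding genes (grey), with all peaks on the left and peaks of 10 kb or less on the right. Grey points drop from 2.73 to 5.16% on the left to 0.131 to 1.53% on the right, whereas the red points, 0 to 2.33%, do not move.

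None of the 86 ribosomal protein genes had a peak wider than 10 kb within 3 kb of an end in any list. Of all protein-coding genes, 4.13% had such a peak in at least 1 H3K27ac list and 3.75% in at least 1 EBF2 list. This count was made after the values were seen. The 3 peaks at ribosomal protein genes were 925 to 1053 bp wide. What the wide stretches add to the difference in shares is the step from −3.68 to −0.0304 percentage points given above, and what sets them was not tested.

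A single list was also the usual case for other genes. Of the 530 protein-coding genes with an H3K27ac peak of 10 kb or less at an end in any list, 71.7% (380 genes) had it in exactly 1 list. In 98 genes it was in 2 lists, in 38 in 3 and in 14 in all 4. Rpl31, Rps3a1 and Rps27a belong to the largest of these classes.

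Related gene groups were described by the same count over any H3K27ac list, which was 3.49% for the cytosolic ribosomal protein genes. Of 78 genes for mitochondrial ribosomal proteins, Mrpl1 and Mrpl18 had an H3K27ac peak at an end in any list (2.56%). Of 57 translation factor genes it was Eif3b and Eif4e, the latter encoding the cap-binding protein (3.51%). Among 56 ribosome biogenesis genes there were 4 (7.14%). They were Ncl, which encodes nucleolin, Nmd3, the export adaptor of the large subunit, Gtpbp4 and Utp18. Of 87 nuclear genes for oxidative phosphorylation 6 had one (6.9%), namely Atp5j, Atp5l, Atp5pb, Cycs, Ndufb1 and Ndufb3. All these peaks were 10 kb or less. Over all protein-coding genes the counts were 1309 of 20665 with any peak (6.33%) and 530 with a peak of at most 10 kb (2.56%). In these 4 groups the calls fell in the first Vec and second Cre libraries, the longest 2 H3K27ac lists, with 0 in the second Vec and first Cre libraries. For EBF2 the count was 0 in each of the 4 groups, as it was for the cytosolic ribosomal protein genes, beside 3.99% of all genes with any peak and 0.644% with a peak of at most 10 kb. No test was made between these groups.

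The nearest listed peak to a ribosomal protein gene, as to most genes, was far away. Of the 86 genes, 8 (9.3%) came within 100 kb of a peak in at least 1 list, against 15.8% of all protein-coding genes. Beyond 1 Mb in every list were 41 of them (47.7%), against 42.2% of all protein-coding genes. Farthest by this measure was Rps15a, with no peak closer than 11.5 Mb in any list. Among the stalk genes the distances were 4595 to 10895 kb for Rplp0, 897 to 16319 kb for Rplp1 and 1331 to 35144 kb for Rplp2. Rps6, the substrate of the S6 kinases, had its nearest peak at 204 kb in both Vec libraries and the second Cre library of H3K27ac and at 1900 to 1903 kb in the other lists. Rpl5 and Rpl11, which bind Mdm2 when ribosome assembly fails, were at 1842 to 3237 kb and 1888 to 9596 kb.

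Rps9, a small-subunit protein gene, was the only member with a peak within 100 kb in all 8 lists. Its distances were 12.5 and 15.6 kb in H3K27ac Vec and 15.8 and 11.9 kb in H3K27ac Cre. In EBF2 they were 14.9 and 23.8 kb in Vec and 15.5 and 11.9 kb in Cre. The peak was the same wide stretch of chromosome 7 in every list, 155 to 179 kb long, holding the immunoglobulin-like receptor genes Pira1 and Pira2. The stretch was listed with both antibodies and in both lines, and it ended before reaching Rps9.

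The remaining members within 100 kb were close in 1 or 2 lists. In the second H3K27ac Cre library, the longest list, Rpl8 was 32.8 kb from a peak at an end of Zfp251. Rpl19 was 33.2 kb from one at ends of Plxdc1 and Arl5c, and Rpl37 66.5 kb from one at an end of Ttc33. In that library Rpl32 was 59.6 kb from a peak of 3.05 kb, and in the first EBF2 Vec library it was 59.9 kb from one of 1.55 kb at the same place. No protein-coding gene has an end within 3 kb of that pair of peaks.

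Some members kept nearly the same distance in all lists. Rpl21 lay 275 to 283 kb from a peak, Rpl13 433 to 434 kb and Rps18 759 to 785 kb. Rpl38 lay 343 to 345 kb away in 7 lists and 27211 kb away in the second EBF2 Vec library, the shortest list. In all, 7 members lay within 1 Mb of a peak in every list, the others being Rps9, Rps27, Rpl28 and Rps28. This count was not made over all protein-coding genes, so it does not set the members apart. In each list a larger share of members than of all genes lay beyond 1 Mb, as given below.

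**Figure D3:**
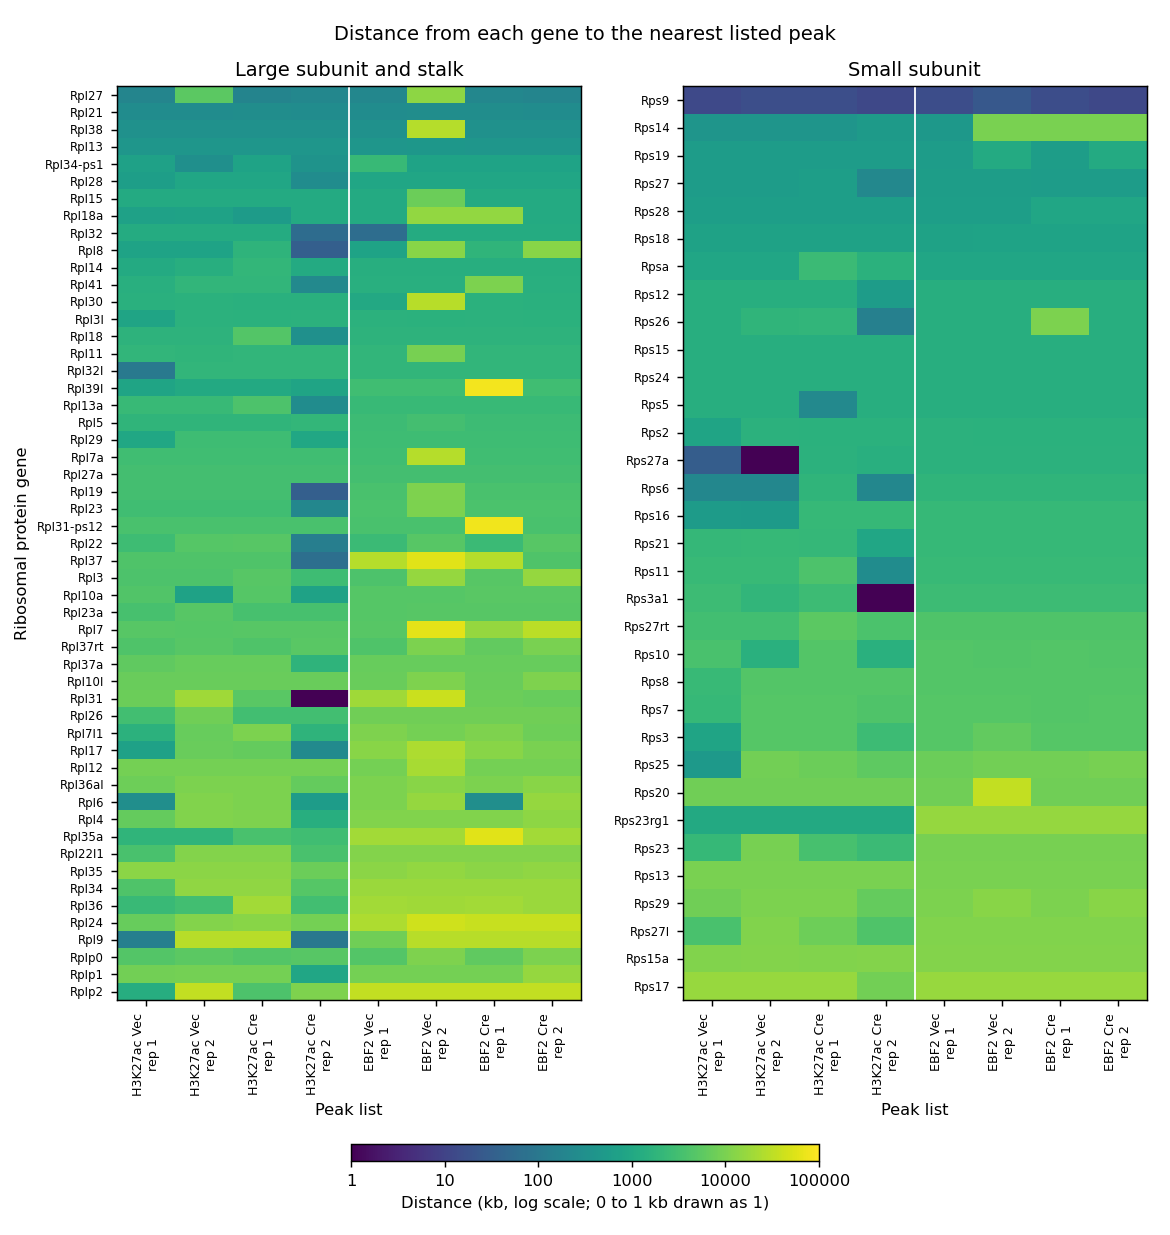
Distance in kb (log colour scale) from each of the 86 genes (rows, large subunit with stalk on the left, small subunit on the right) to the nearest peak in each of the 8 lists (columns). The 3 darkest cells are the peaks at Rpl31, Rps3a1 and Rps27a, and Rps9 is the row that is dark throughout, at 11.9 to 23.8 kb.

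The median distance to the nearest peak was larger for the ribosomal protein genes than for all protein-coding genes in each list. In H3K27ac Vec it was 1.85 and 2.9 Mb against 1.26 and 2.29 Mb. In H3K27ac Cre the medians were 3.32 and 1.4 Mb against 2.11 and 1.07 Mb. In EBF2 Vec they were 3.42 and 7.31 Mb against 2.75 and 4.92 Mb, and in EBF2 Cre 4.55 and 4.02 Mb against 3.08 and 3.16 Mb. The share of members more than 1 Mb from any peak ran from 59.3 to 89.5%, and that of all genes from 51.8 to 80.3%. When only peaks of 10 kb or less were counted, the order was mixed. The members' median was then larger in the first H3K27ac Vec library (2.94 against 2.31 Mb) and smaller in the second (5.53 against 5.58 Mb). It was smaller in both H3K27ac Cre libraries, at 4.99 against 5.2 Mb and 1.6 against 1.72 Mb. In EBF2 Vec the pairs were 5.1 against 5.97 Mb and 10.6 against 9.61 Mb, and in EBF2 Cre 9.95 against 8.06 Mb and 8.12 against 8.43 Mb. Distances within and between lists share genes and peaks, so these medians are descriptions without a test.

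**Figure D4:**
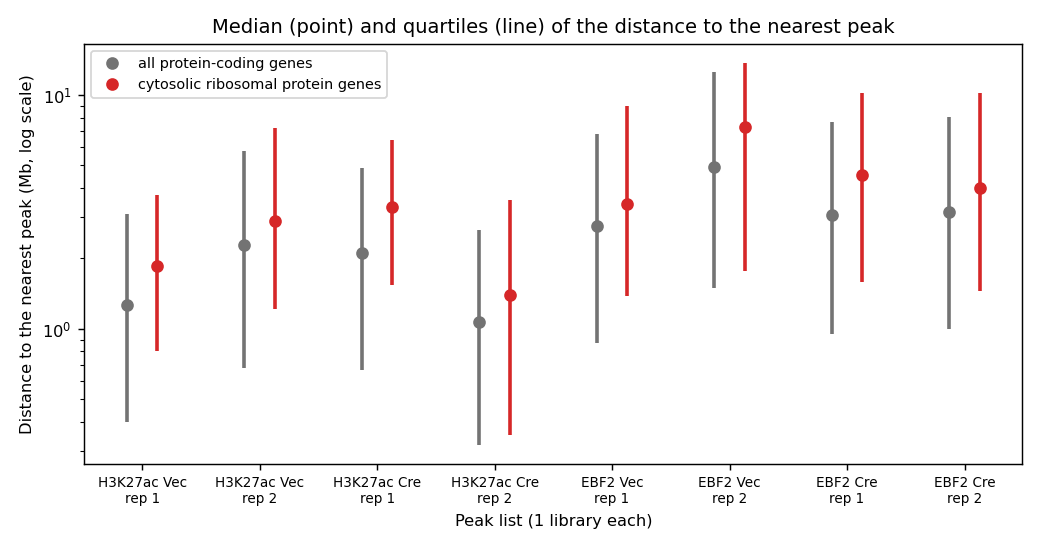
Distance in Mb (log axis) from a gene to the nearest peak of any width in each list, with the point at the median and the line between the quartiles, for the 86 ribosomal protein genes (red) and all 20665 protein-coding genes (grey). The red median is above the grey one in all 8 lists, and the quartile ranges overlap throughout.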

How the data were processed

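Cut & Tag peak lists of 8 libraries were analysed. The submitters' processing notes name bcl2fastq 2.17, Trimmomatic 0.33, HISAT2 2.2.1, MACS2 2.2.7 and the mm10 build. Their settings and any control library are not given in the sources used here. In the deposited lists the authors give each peak a score, a fold over background as a ratio, and −log10 p and −log10 q. In the H3K27ac lists these are means over a broad region. The smallest −log10 q listed was 1.04 to 1.1 for H3K27ac and 1.3 to 1.6 for EBF2. No counts are given, so depth and counting error are unknown.

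Peaks were joined to RefSeq GRCm38.p6 genes with Python 3.11.15, numpy 2.4.6 and pandas 2.3.3. A gene was called when a peak lay within 3 kb of either end, or within 10 kb of the gene. Libraries were compared by two-sided exact permutation tests. Every member with a peak at an end was named. The members, gene groups and tests were chosen with earlier results of these data known. The joins were tested on simulated data: 40 of 40 end peaks and 70 of 70 within the window were found over 600 genes. These genes did not overlap, all peaks were short, and end peaks were set only at the lower gene end. Wide peaks, peaks at upper ends and overlapping genes were thus not tested. Alternatives were a 1 kb window, peaks of 10 kb or less, scores at or above the antibody's median (27 for H3K27ac, 29 for EBF2), equal numbers of best-scoring peaks (646 and 533), no paralogs, 2 rules for peaks shared by replicates, a replicate block and each library left out. Single pseudogenes are not reported here.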

Additional observations from a re-analysis of the deposited data

How the results depend on the processing

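With scores at or above the antibody's median the Rps3a1 peak was lost, and the H3K27ac difference between Cre and Vec became 0 genes, at an end and within 10 kb alike. Leaving out each library in turn moved that difference between −0.5 and 1.5 for both windows: −0.5 without the second Cre library, 0 without the first Vec library, 1 without the second Vec library and 1.5 without the first Cre library. The difference between antibodies ranged from 0.333 to 1 and the difference in shares from −3.98 to −3.25 percentage points. The replicate numbers are not said to mark a shared culture or day and are only 2, so the replicate block is given once: 0.5 genes and p = 1 for H3K27ac Cre against Vec (exact sign-flip permutation test), and 0.75 genes and p = 0.5 for the antibodies, each the lowest p these counts allow. Peaks of 10 kb or less moved the difference in shares as given above. The EBF2 counts and the counts in both replicates were 0 in the main setting, and every alternative run only narrows the calls, so they could not move and say nothing about stability. The alternative that uses only the start site was not run, because the start of 65 of 86 genes was known. The unknown read depth limits every count of genes without a peak.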

Other observations

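Annotated ribosomal protein pseudogenes, which are mostly retrocopies of the genes above, were outside the comparisons. Of 281 with a -ps symbol on chromosomes 1 to 19, between 7 and 9 had a peak within 3 kb of an end in the H3K27ac lists (2.49 to 3.2%) and between 6 and 8 in the EBF2 lists (2.14 to 2.85%). Over all 9496 annotated pseudogenes the shares were 7.38 to 7.98% and 6.08 to 7.55%. The order depended on peak width. With peaks of 10 kb or less, 2 and 1 of the 281 were called in H3K27ac Vec and 0 and 3 in Cre, against 25, 23, 21 and 30 of the 9496, so that the ribosomal protein share was the higher in 3 of the 4 lists. In EBF2 the counts were 0 and 0 in Vec and 1 and 1 in Cre, against 41, 34, 28 and 26. In all, 11 of the 281 were called in at least 1 list, 4 of them in a peak of 10 kb or less. The count over any list was not made for all annotated pseudogenes, so these 2 counts have no share beside them. Near-identical copies share reads, and how such reads were placed is not given in the sources used here, so these calls are uncertain.

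The X-linked genes Rpl10, Rpl36a, Rpl39 and Rps4x had no peak within 10 kb in any list. Rpl39 was nearest, at 155 to 175 kb.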
